A study of Homo sapiens with 12 samples.

Results

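In control DCIS.COM cells, 1777 distal regions carried windows of STAT3 phosphorylated at S727 (pSTAT3), of BCL9 and of at least 1 listed CTCF peak pair. DCIS.COM is a human breast cancer cell line that models ductal carcinoma in situ. The regions were selected on the control peak lists. Each peak pair, a position where ChIP-exo tags on both strands flank a crosslinking point, became a 100 bp window, the windows of an antibody were merged, and a region was kept when at least 2 of the 3 control libraries had a window in it. Of 37044 pSTAT3 and 11623 BCL9 regions (39994 in all, with overlapping ones counted once), 8542 pSTAT3 regions overlapped a BCL9 region. Of these, 7971 lay over 1 kb from every protein-coding transcription start site (TSS), and 1777 of the 7971 (22.3%) overlapped a CTCF window. Among all control pSTAT3 regions, 17.4% had a CTCF window. These counts follow from the selection and were not tested.

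Chromatin was prepared from DCIS.COM cells expressing either a BCL9 knockdown (BCL9 KD) or a non-silencing control hairpin (NS control, labelled non-scrambled control). Antibodies against STAT3 phosphorylated at S727 gave 2 BCL9 KD and 3 NS control libraries, and antibodies against BCL9 gave another 2 and 3. A single CTCF library came from NS control cells, so CTCF has no replicate and no knockdown counterpart. Libraries are numbered biological replicates, and no source used here says whether the knockdown line was a single clone. The lists held 95586 to 493174 peak pairs in BCL9 KD cells, against 24728 to 374089 in NS control cells, and 457119 for CTCF. The sample labels do not give sequencing runs. As read from the names of the deposited lists, NS control replicate 1 of pSTAT3 and of BCL9 came from a single run. By the same reading all other libraries came from 3. The loss of BCL9 protein cannot be checked from peak lists.

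STAT3 is a transcription factor activated by IL6-family cytokines, and serine phosphorylation modulates its activity beside the tyrosine phosphorylation that lets it bind DNA as a dimer. BCL9 is a coactivator that links β-catenin to Pygopus in Wnt signaling and does not bind DNA itself. CTCF is a zinc-finger protein that binds a long GC-rich motif, stops cohesin at loop anchors and bounds chromatin domains. AP-1, a dimer of JUN and FOS family proteins, occupies many enhancers of basal epithelial cells.

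The 1777 regions were split by CTCF signal. A strong region overlapped one of the 24728 strongest CTCF peak pairs, as many as the shortest list of the series holds, and a weak region overlapped only weaker ones. Only 42 regions were strong, with 60 to 212 CTCF tags (median 92), and 1735 were weak, with 3 to 59 tags (median 5). A tag is 1 sequenced 5′ end, and 3 tags was the lowest value in the CTCF list. The weakest strong regions had 60, 62 and 62 tags, and the strongest weak regions 59, 59 and 58. The CTCF tags of a region are those of its strongest CTCF peak pair, whereas shares of the CTCF list count each peak pair. Of all members, 1013 (57.0%) had at most 5 CTCF tags, against 43.2% of the whole CTCF list, and 1523 (85.7%) had at most 10, against 61.1%.

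Sequence under the CTCF windows was checked first, because it tells how far the CTCF label holds. The CTCF core string CAGNNGGCG (N for any base, either strand) was present under the strongest CTCF window of 7 of 42 strong regions (16.7%, Wilson 95% interval 8.32 to 30.6) and of 28 of 1735 weak regions (1.61%, 1.12 to 2.32). It lay in 12.3% of the 24728 strongest CTCF windows of the genome, in 3.64% of all CTCF windows, and in 0.591% of windows flanking those of the members at 500 and 1000 bp. The 5 strong regions with the most CTCF tags among those with the string under this window were taken, and 4 are shown. Printed are their 100 bp CTCF windows (GRCh37), named by the nearest TSS, with the string in capitals. The window near NCAPH overlaps its region (chr2:97073309-97073505) only in part, and the string lies outside the region. The intervals cover counting error only.

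DBN1, chr5:176883503-176883602, plus strand: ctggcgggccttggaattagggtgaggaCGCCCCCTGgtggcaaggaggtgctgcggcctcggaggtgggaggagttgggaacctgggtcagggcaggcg
NAB1, chr2:191545174-191545273, plus strand: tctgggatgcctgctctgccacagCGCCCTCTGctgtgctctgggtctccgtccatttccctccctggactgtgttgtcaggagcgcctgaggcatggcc
AOPEP, chr9:97545467-97545566, plus strand: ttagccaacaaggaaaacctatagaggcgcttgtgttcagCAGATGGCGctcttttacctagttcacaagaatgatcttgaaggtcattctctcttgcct
NCAPH, chr2:97073221-97073320, plus strand: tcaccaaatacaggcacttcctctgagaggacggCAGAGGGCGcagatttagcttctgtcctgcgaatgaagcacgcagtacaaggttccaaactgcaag

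DBN1 (drebrin, an actin-binding protein) had 174 CTCF tags at this window, NAB1 (a corepressor of EGR factors) 98, AOPEP (an aminopeptidase) 78 and NCAPH (a condensin subunit) 77. Of the weak regions that hold the AP-1 string TGACTCA, 4 with a high mean rank in the 6 control pSTAT3 and BCL9 lists are shown in turn, as the 100 bp round their strongest control pSTAT3 midpoint (the summit), with AP-1 strings in capitals.

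SLIT3, chr5:168777914-168778013, plus strand: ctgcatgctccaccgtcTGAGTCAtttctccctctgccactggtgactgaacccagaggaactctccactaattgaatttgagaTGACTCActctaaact
KRT31, chr17:39560363-39560462, plus strand: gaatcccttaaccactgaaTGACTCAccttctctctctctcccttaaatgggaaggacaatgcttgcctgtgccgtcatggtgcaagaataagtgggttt
SMURF2, chr17:62703500-62703599, plus strand: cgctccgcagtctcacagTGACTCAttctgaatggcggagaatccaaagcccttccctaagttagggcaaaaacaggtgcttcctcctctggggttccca
THBS1, chr15:39481330-39481429, plus strand: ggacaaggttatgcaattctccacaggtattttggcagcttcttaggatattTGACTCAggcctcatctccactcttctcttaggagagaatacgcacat

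The CTCF windows of these weak regions had 6 tags near SLIT3 (a secreted guidance protein), 4 near KRT31 (a hair keratin), 7 near SMURF2 (a ubiquitin ligase of TGF-β signaling) and 3 near THBS1 (thrombospondin 1, a matrix glycoprotein). The summit near SLIT3 held AP-1 strings in both orientations within 100 bp.

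Few members had a CTCF sequence by a second measure. Because the core string is present in few strong CTCF windows, a 16-position CTCF matrix was made from 5963 strong CTCF windows outside pSTAT3 and BCL9 regions, with its threshold set so that 1% of flanking windows matched. This measure was added after the string shares were seen. It matched 73.3% of 5962 strong CTCF windows not used to make it. Under the CTCF window it matched 21 of 42 strong regions (50%, Wilson 95% interval 35.5 to 64.5) and 101 of 1735 weak regions (5.82%, 4.81 to 7.02), beside 1.07% of the flanks of the members. All CTCF windows matched in 21.2%, and the CTCF windows of distal pSTAT3-only regions in 17.0%.

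The share of members with a match followed the CTCF tags. The share was 1.78% at 3 to 4 tags (12 of 673), 3.56% at 5 to 9 tags (29 of 815), 17.6% at 10 to 19 tags (26 of 148), 30.5% at 20 to 39 tags (18 of 59), 40% at 40 to 59 tags (16 of 40) and 50% at 60 or more. Since 1523 of the 1777 members had at most 10 tags, they are described below by the window they hold and not as CTCF sites.

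**Figure D1:**
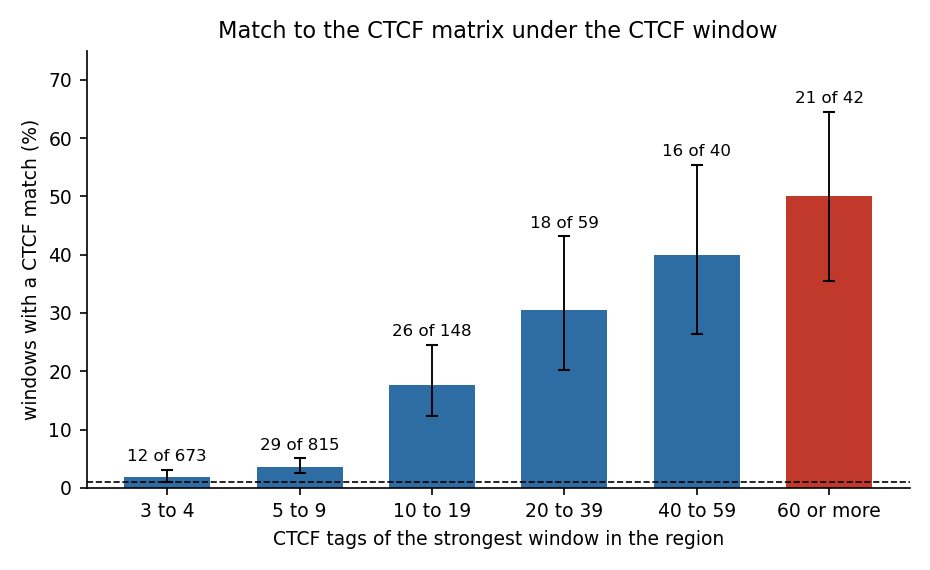
Share of members (y axis, percent) whose strongest CTCF window matches the CTCF matrix, by the number of CTCF tags of that window (x axis). Blue bars are weak and the red bar strong regions, whiskers are Wilson 95% intervals, the numbers are regions with a match of all in the class, and the dashed line is the share in flanking windows (1.07%). The share is 1.78% at 3 to 4 tags and 50% at 60 or more.

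Strong regions also held more CTCF peak pairs. These were counted in the same list that set the strong class, so the count is not independent of it. All 42 strong regions overlapped 3 or more CTCF windows, with 14 at most. Of the weak regions, 1260 of 1735 (72.6%) overlapped a single CTCF window, 263 overlapped 2 and 212 overlapped 3 or more. The 42 strong regions had 41 different strongest CTCF windows, since a pair of neighbouring regions near TUBD1 shared one, and the 1777 members had 1767.

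Strong CTCF windows were rarer and weak ones more frequent at distal regions shared with BCL9 than at distal regions with pSTAT3 alone. A strong window lay in 42 of 7971 distal shared regions (0.527%), against 432 of 25108 distal pSTAT3-only regions (1.72%) and 1.59% of all control pSTAT3 regions. Weak windows alone lay in 1735 of 7971 (21.8%), against 3223 of 25108 (12.8%). Among regions with a CTCF window, 2.36% of the distal shared and 11.8% of the distal pSTAT3-only ones were strong by their strongest peak pair, beside 5.41% of the single peak pairs of the CTCF list. These shares are descriptions of regions, which are not replicates, and the selection itself sets who is a member.

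**Figure D2:**
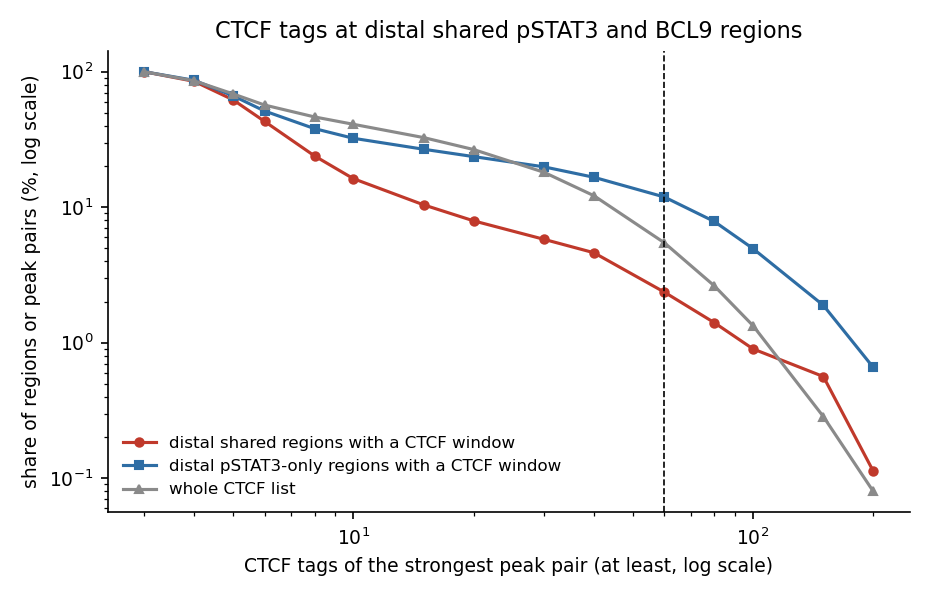
Share of regions or peak pairs (y axis, percent, log scale) with at least a given number of CTCF tags (x axis, log scale), for the members, for distal pSTAT3-only regions with a CTCF window and for the whole CTCF list. The dashed line is the limit of the strong class, 60 tags. Regions are placed by their strongest CTCF peak pair, and the list by each peak pair. At 10 tags or more lie 16.3% of the members, 32.3% of the pSTAT3-only regions and 41.0% of the list.

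Region length moved with both shares. The median length was 357 bp for weak regions, 307 bp for strong regions and 301 bp for the 6194 distal shared regions without a CTCF window, and a longer region has more bases that a window can touch. The share with any CTCF window was 13.5% over 100 to 150 bp, 16.9% over 150 to 200 bp, 19.2% over 200 to 300 bp, 23.2% over 300 to 500 bp and 35.2% over 500 bp. In distal pSTAT3-only regions it was 12.1%, 13.1%, 15.1%, 19.2% and 24.3% in the same classes, so the shared regions lay above in each class. Strong windows were rarer in shared regions in each class, at 0.449% to 0.699% against 0.565% to 2.11%, but over 500 bp the numbers were only 5 and 2 regions.

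**Figure D3:**
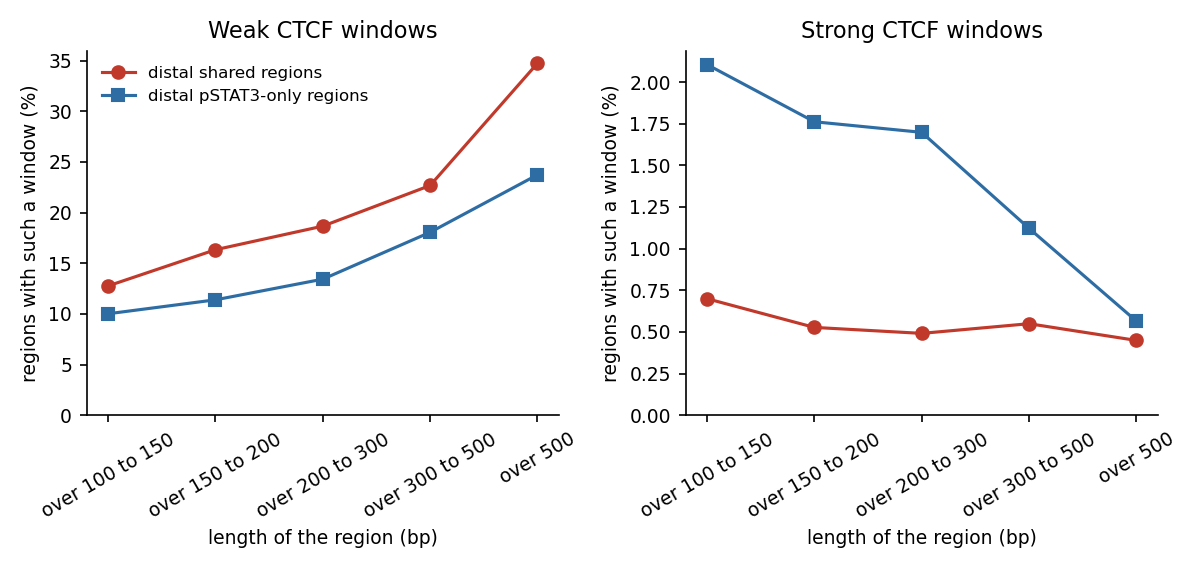
Share of distal regions (y axis, percent) with a weak CTCF window only (left) and with a strong CTCF window (right), by length of the region (x axis, bp), for regions shared with BCL9 and for regions with pSTAT3 alone. The panels have different scales. Shared regions lie above pSTAT3-only regions in all 5 classes on the left and below them in all 5 on the right.

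The share with a CTCF window also went with pSTAT3 and BCL9 signal, but less so at a given length. When the distal shared regions were ordered in 5 equal parts by their mean percentile in the control pSTAT3 lists, CTCF windows lay in 18.2% of the lowest and 29.0% of the highest part, whose median lengths were 203 and 469 bp. By BCL9 percentile the shares were 17.1% and 28.1%. Among regions of 300 to 500 bp, a class chosen after the data were seen, the 5 parts had, from low to high, 21.6%, 25.5%, 21.8%, 21.2% and 25.9% by pSTAT3, and 19.8%, 23.6%, 20.8%, 24.5% and 27.2% by BCL9. Strong regions numbered 13, 5, 12, 10 and 2 from the lowest to the highest pSTAT3 part.

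CTCF midpoints did not coincide with pSTAT3 summits at most members. The distance from the summit to the strongest CTCF midpoint had a median of 97 bp over the members, 87.5 bp in strong and 97 bp in weak regions. Measured from the strongest midpoint of each control pSTAT3 library, the median was 95, 97 and 99 bp in replicates 1 to 3 (97 ± 2, SD, n = 3). Only 185 members (10.4%) had both within 20 bp, 3 of them strong, and 868 (48.8%) had them over 100 bp apart. In distal pSTAT3-only regions with a CTCF window, which are shorter, the median was 72 bp and 15.0% lay within 20 bp. Strong regions with a matrix match had a median of 81 bp (21 regions) and those without 92 bp (21 regions). Over the members, the median moved with the window size, to 53 bp with 50 bp windows and 157 bp with 200 bp windows.

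**Figure D4:**
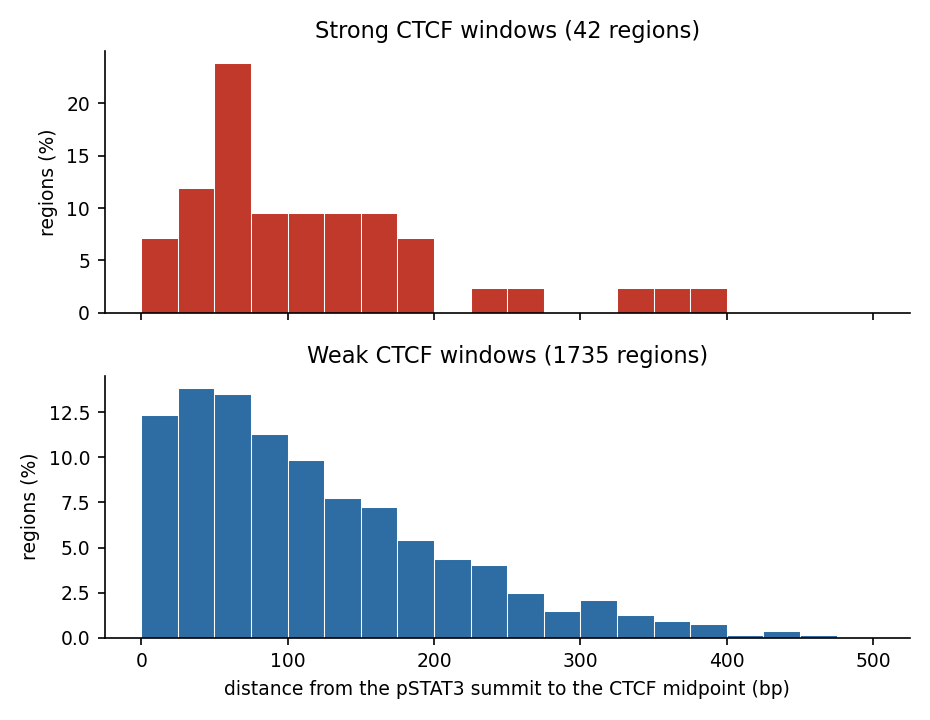
Distance from the pSTAT3 summit to the midpoint of the strongest CTCF peak pair (x axis, bp, in steps of 25 bp) as a share of the regions (y axis, percent, different scales), for the 42 strong (top) and the 1735 weak regions (bottom). Of the strong regions, 7.14% lie within 20 bp, and 10.5% of the weak ones.

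AP-1 was the most frequent of the named binding strings at the summits of the members, as at the summits of all pSTAT3 regions. The AP-1 string lay in the summit window of 390 of 1777 members (21.9%), 11.9 times the share in flanking windows. The share was 11.9% in strong (5 of 42), 22.2% in weak and 22.4% in distal shared regions without CTCF, and 25.3% of all control pSTAT3 regions had it. Members differed from distal shared regions without CTCF by −0.48 percentage points, with a Newcombe 95% interval of −2.62 to 1.75 that covers counting error only, so the difference was not detectable. With only CTCF windows that overlap the summit window the difference was −2.82 points. Over the whole region, 705 members (39.7%) held AP-1, against 38.0% of the distal shared regions without CTCF.

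C/EBP, TEAD, RUNX and REL strings differed by under 1 percentage point between members and distal shared regions without CTCF. C/EBP (TTGCNNAA, bound by factors of acute-phase and epithelial genes) lay in 11.4% of member summits and 12.4% without CTCF, against 8.36% of all pSTAT3 regions. TEAD (GGAATG, the DNA partners of YAP and TAZ) lay in 13.4% and 13.7%, against 10.9%, and RUNX (TGTGGT) in 12.0% and 13.0%, against 9.69%. The palindromic STAT3 string TTCCNGGAA lay in only 12 member summits (0.675%), 3.43 times the flanks, and in 0.581% without CTCF. REL (GGANTTTCC) was found in 1.13% and 1.16%, and ETS (CCGGAAGT) in 5 member summits, the CRE string TGACGTCA in 3 and the p53 family string GACATGTC in 5. TCF/LEF (CTTTGAT), bound by the partners of β-catenin, was found in 1.07% of member summits and 1.5% of those without CTCF, and in 1.74% of the flanks of the members. CTCF sequence was more frequent at members. The core string lay in 1.18% of member summits and 0.452% of those without CTCF, and the matrix matched 2.25% and 0.484%.

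AP-1 strings were also present under the CTCF windows themselves. They lay in the CTCF window of 6 of 42 strong (14.3%) and 189 of 1735 weak regions (10.9%), beside 1.20% of the strongest CTCF windows of the genome and 1.72% of the whole list. The share was 10.8% in distal pSTAT3-only regions with a CTCF window and 9.94% in all pSTAT3 regions with one. It is therefore not particular to the members. Where the CTCF window of a member overlapped the summit window, 143 of 906 (15.8%) held AP-1. Where it lay apart from the summit window, 52 of 871 (5.97%) did, against 2.01% of flanking windows. In distal pSTAT3-only regions with a CTCF window these shares were 13.2% and 5.91%. A matrix match under the CTCF window and an AP-1 string in the region occurred together in 51 members. AP-1 alone occurred in 654, the match alone in 71 and neither in 1001. Of the strong regions, 3 had both, 6 AP-1 alone, 18 the match alone and 15 neither.

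The GC content of summit windows had a median of 50.5% in strong and 48% in weak regions, against 46% in distal shared regions without CTCF. Of the members, 3.71% lay in exons, 44.1% in introns and 52.2% between protein-coding genes, close to the 2.52%, 43.6% and 53.9% of the regions without CTCF. Strong regions lay nearer to a TSS, although 50% of them lay between genes, against 52.3% of weak regions. Their median distance to a TSS was 18750.5 bp, against 39075 bp in weak regions and 39802.5 bp in regions without CTCF. Of the strong regions, 9 of 42 lay over 50 kb away, against 42.3% and 44.3%. In distal pSTAT3-only regions with a CTCF window the median distance was 27331 bp. Density was highest on chromosome 17, with 114 members (14.0 per 10 Mb), where 31.1% of the distal shared regions had a CTCF window, and lowest on X (0.966 per 10 Mb). Members lay within 10 kb of another member in 324 cases (18.2%).

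After BCL9 knockdown most members still had windows of both antibodies. Windows of both BCL9 KD pSTAT3 libraries were present at 1694 members (95.3%) and of both BCL9 KD BCL9 libraries at 1414 (79.6%). The selection did not use these libraries, but all control pSTAT3 regions had such windows in 74.2% and 34.6%, and distal shared regions without CTCF in 93.9% and 74.7%. Among strong regions the counts were 39 of 42 (92.9%) and 29 of 42 (69.0%), and in weak regions 1655 (95.4%) and 1385 (79.8%). Only 2 members, 1 strong and 1 weak, had no window in any BCL9 KD library, and 49 (2.76%) had none of the BCL9 antibody, against 3.76% of the regions without CTCF. All 10 libraries had a window at 707 members (39.8%), against 30.3% without CTCF. Knockdown lists were longer than most control lists, so these shares do not measure a change in binding.

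Within each BCL9 KD library, members had windows slightly more often than distal shared regions without CTCF, but not in every class of length. With pSTAT3 antibodies the shares were 97.0% and 97.8% in replicates 1 and 2 at members, against 96.1% and 96.8% without CTCF. With BCL9 antibodies they were 82.3% and 94.5% at members, against 77.8% and 93.2% without CTCF. The difference averaged 1.92 ± 1.75 points (SD, n = 4 libraries) and was above 0 in 4 of 4, with an exact two-sided sign-flip permutation p of 0.13, the smallest that 4 libraries allow. The median percentile of the strongest window within its list was also higher, by 1.91 ± 0.707 points (4 of 4, exact permutation p = 0.13). The sign flips, here and below, take the 4 libraries, 2 per antibody, as independent. Whether same-numbered libraries of the 2 antibodies share chromatin is not said in the sources used here. Members are longer, and at a given length their mean occupancy over the 4 libraries was lower in 3 of 5 classes. It was 76.6% at members and 73.1% without CTCF over 100 to 150 bp, 80.9% and 83.6% over 150 to 200 bp, 89.9% and 90.1% over 200 to 300 bp, 96.0% and 95.5% over 300 to 500 bp, and 98.5% and 98.6% over 500 bp. With regions in all 3 control libraries the occupancy difference was 0.16 points (exact permutation p = 0.5), and with lists of equal length it was 5.50. With only CTCF windows overlapping the summit window the occupancy difference turned to −0.28 points (exact permutation p = 0.25), and with at least 10 tags in every list the percentile difference turned to −0.16 (exact permutation p = 1).

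Strong regions had BCL9 KD windows less often than weak regions. With pSTAT3 antibodies the shares were 95.2% and 95.2% at strong regions, against 97.0% and 97.9% at weak regions, and with BCL9 antibodies 76.2% and 85.7%, against 82.5% and 94.7%. The difference averaged −4.92 ± 3.35 points (SD, n = 4 libraries) and was below 0 in 4 of 4 (exact sign-flip permutation p = 0.13, the smallest possible). It rests on 42 regions and on the libraries that selected them, and turned to 0.51 points without control pSTAT3 replicate 1, to 1.54 without control BCL9 replicate 3 and to 2.46 with regions in all 3 control libraries. With lists of equal length it was −24.35 (9 strong regions), with 50 bp windows −14.63 and with summit overlap −10.14. Strong regions were also shorter, with a median of 307 bp against 357 bp in weak regions. Mean occupancy of the members rose with length, from 76.6% over 100 to 150 bp to 98.5% over 500 bp. Strong and weak regions were not compared within a class of length. Where listed, strong regions had medians of 21 and 19 pSTAT3 tags in BCL9 KD libraries, against 22 and 25 at weak regions. In NS control libraries the medians were 9, 8 and 14 tags at strong and 10, 12 and 21 tags at weak regions.

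The occupancy difference of members from distal shared regions without CTCF is given for both conditions as a description. It was not tested between conditions, because windows in NS control libraries selected the regions. For pSTAT3 it averaged 0.91 ± 0.0832 points in BCL9 KD libraries (n = 2) and 2.69 ± 2.01 points in NS control libraries (n = 3), a change of −1.78. For BCL9 it averaged 2.93 ± 2.26 points in BCL9 KD libraries (n = 2) and 3.28 ± 2.69 in NS control libraries (n = 3), a change of −0.35. Nothing about a change with knockdown can be read from these values, whose sign also depended on single libraries. For pSTAT3 the change turned to 0.23, 0.96 and 0.20 without control pSTAT3 replicate 1, 2 or 3, and for BCL9 to 2.10, 2.59 and 1.51 without control BCL9 replicate 1, 2 or 3 and to 1.25 without knockdown BCL9 replicate 2.

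**Figure D5:**
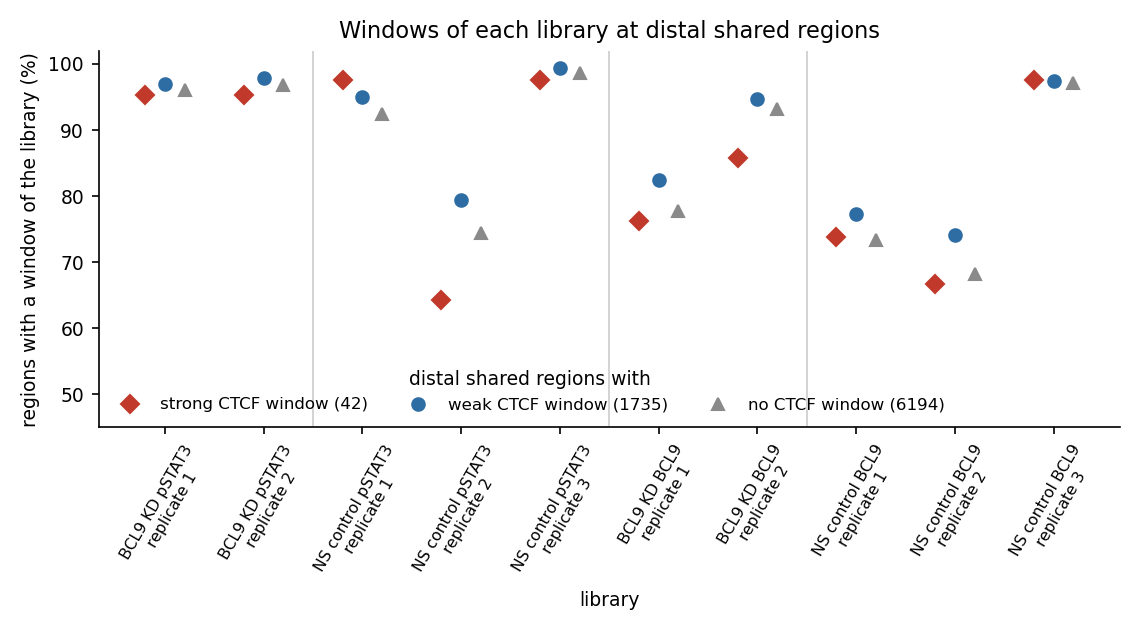
Share of distal shared regions (y axis, percent, starting at 45) with a window of each library (x axis), for regions with a strong CTCF window, a weak CTCF window and none, BCL9 KD libraries left of NS control libraries for each antibody. The NS control libraries selected the regions. In both BCL9 KD BCL9 libraries strong regions (76.2% and 85.7%) lie below weak regions (82.5% and 94.7%).

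The strong regions with the most CTCF tags are described with their genes and their tags in each library. Since depth per library is not known and the lists differ in length, no fold is drawn between conditions. Deposited signal is tags times a constant of each list (0.369 to 1.07). Overlap of values is stated for tags only and can differ by signal. Over all control pSTAT3 regions, where listed, median pSTAT3 tags were 13 and 14 in BCL9 KD and 6, 8 and 10 in NS control libraries. Median BCL9 tags over the same regions, where listed, were 11 and 9 in BCL9 KD and 6, 12 and 10 in NS control libraries. The share of regions without overlap was not counted for either antibody. Values without overlap at a single region therefore do not set it apart. The region with the highest CTCF signal, chr1:145542655-145543098 with 212 CTCF tags, lies in an exon of ITGA10, a collagen-binding integrin subunit, and is nearest to a TSS of ANKRD35. It had 32 and 30 pSTAT3 tags in BCL9 KD libraries, against 15, 22 and 29 in NS control libraries. With BCL9 antibodies it had 23 and 24 tags in BCL9 KD libraries, against 7, 27 and 42 in NS control libraries. The pSTAT3 values did not overlap between conditions and the BCL9 values did. The strongest CTCF window of this region, with its midpoint 335 bp from the summit, held neither the core string nor a matrix match.

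ACTN4 and ACTN1 encode the non-muscle α-actinins that crosslink actin filaments. The region between genes near ACTN4 (chr19:39127587-39127948) had 208 CTCF tags, with 18 and 9 pSTAT3 tags in BCL9 KD libraries, against 8, 10 and 19 in NS control libraries. Its BCL9 tags were 32 and 21 in BCL9 KD libraries, against 5, none listed and 6 in NS control libraries. Both BCL9 KD values thus lay above all NS control values for BCL9, and the pSTAT3 values overlapped. The region in an intron of ACTN1 (chr14:69408613-69408726, 123 CTCF tags) was 114 bp long with its CTCF midpoint 3 bp from the summit. It had 23 and 34 pSTAT3 tags in BCL9 KD libraries, against 12, none and 13 in NS control libraries, and BCL9 tags of 19 and none, against 6, none and 22.

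LMNA encodes the A-type lamins of the nuclear envelope. Its intronic region (chr1:156099836-156100311, 149 CTCF tags, matrix match, AP-1 string at the summit) had windows in all 10 libraries. It had 28 and 29 pSTAT3 tags in BCL9 KD libraries, against 7, 16 and 38 in NS control libraries, and 9 and 17 BCL9 tags, against 7, 11 and 26. Values of both conditions overlapped for both antibodies. KCNN4 encodes a calcium-activated potassium channel. The region near it (chr19:44289285-44289589, 181 CTCF tags) had 30 and 44 pSTAT3 tags in BCL9 KD libraries, against 15, 6 and 12 in NS control libraries, and 42 and 33 BCL9 tags, against 6, 18 and 37. The pSTAT3 values did not overlap and the BCL9 values did.

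A few strong regions had sparse windows. DBN1, shown above by its sequence, had 9 and 10 pSTAT3 tags in BCL9 KD libraries, against 6, none and 5 in NS control libraries, and its windows lay in 7 of 10 libraries. The region in an intron of LEMD1 (chr1:205366249-205366406, 95 CTCF tags), a LEM-domain gene, had no window in any BCL9 KD library. In NS control libraries it had 4, none and 4 pSTAT3 tags and none, 12 and 6 BCL9 tags, where the lowest listed values were 4 and 4 tags in the 2 pSTAT3 lists and 9 and 6 tags in the 2 BCL9 lists. The region between genes near TNFAIP8L3 (161 CTCF tags, matrix match) had windows in 6 of 10 libraries.

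The rest of the 20 strong regions with the highest CTCF signal had 95 to 183 CTCF tags. They lay nearest to GUK1 (guanylate kinase), COPG1 (a coat protein of Golgi vesicles), FBXO11 (a ubiquitin ligase subunit), ECE1 (endothelin-converting enzyme), SPOCK1 (a matrix proteoglycan), ZDHHC18 (a palmitoyltransferase), NAB1 and BRINP2, each with a matrix match, to RPL22L1 (a ribosomal protein paralog) and MYL4 (a myosin light chain), with none, and to POU5F1B and LRATD2, both with a match, in the gene-poor surroundings of MYC. RPL22L1 had 63 and 34 pSTAT3 tags in BCL9 KD libraries, against 24, 10 and 70 in NS control libraries. Windows of all 10 libraries were present at ANKRD35, KCNN4, POU5F1B, LRATD2, LMNA, MYL4 and ZDHHC18.

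The weak regions with the best mean rank in the control lists had 4 to 9 CTCF tags, far below their pSTAT3 and BCL9 tags. All 10 had windows in every library, and none had a matrix match. EFEMP1 encodes a matrix protein, fibulin-3. The region with its TSS as the nearest, 68478 bp away (chr2:56219366-56220205, 5 CTCF tags), had 101 and 158 pSTAT3 tags in BCL9 KD libraries, against 48, 50 and 112 in NS control libraries. Its BCL9 tags were 129 and 67, against 52, 59 and 102. Values overlapped for both antibodies. The region in an intron of EREG, which encodes the EGF receptor ligand epiregulin (chr4:75240125-75240822, 6 CTCF tags), had 151 and 145 pSTAT3 tags in BCL9 KD libraries, against 51, 35 and 163 in NS control libraries, and 47 and 39 BCL9 tags, against 18, 48 and 70.

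TP63 encodes the transcription factor that maintains basal epithelium. For the region at chr3:189655110-189656025 (4 CTCF tags) the nearest TSS was that of TP63, 148100 bp away. This region had 58 and 63 pSTAT3 tags in BCL9 KD libraries, against 45, 34 and 87 in NS control libraries, and 63 and 77 BCL9 tags, against 30, 39 and 82. Values overlapped there too. The others of the 10 lay nearest to POU5F1B (3 regions), MYC (439319 bp away), JAG1 (a Notch ligand, 593424 bp away), SLIT3 and EFCAB13. The last (chr17:45382387-45383313, 8 CTCF tags) lies in an intron of ITGB3, and had 68 and 38 pSTAT3 tags in BCL9 KD libraries, against 35, 41 and 62 in NS control libraries.

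Genes that the study followed had members in reach at ITGB3, CD44, MUC1 and ITGB4, 4 of the 9 study targets, within 50 kb of a TSS. The targets MMP16, ITGA2, FZD7, ITGA4 and ITGAV had none. Of all protein-coding genes, 7.55% had a member in reach. Distal shared regions without CTCF lay in reach of 55.6% of the same targets, against 17.5% of all genes. This list was chosen on these samples and is no independent evidence. ITGB3 encodes integrin β3, a receptor subunit for vitronectin and fibronectin. Of its 3 members, the one between genes at chr17:45307183-45307629 was strong (108 CTCF tags, no matrix match), 23891 bp from a TSS of ITGB3 and nearest to MYL4, with the CTCF midpoint 1 bp from the summit. It had 42 and 33 pSTAT3 tags in BCL9 KD libraries, against 13, 12 and 14 in NS control libraries, and 15 and 8 BCL9 tags, against 6, 9 and 23. The pSTAT3 values did not overlap and the BCL9 values did. Median pSTAT3 tags over all control pSTAT3 regions were also higher in BCL9 KD libraries (13 and 14, against 6, 8 and 10). No gain particular to ITGB3 can be read from these tags. The others, in introns of ITGB3 (chr17:45335223-45335691 and chr17:45352673-45352997), were weak with 4 CTCF tags each.

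The first of these had 15 and 12 pSTAT3 tags in BCL9 KD libraries, against 9, 12 and 9 in NS control libraries, and the second had 24 and 31, against 19, 21 and 31. CD44 encodes the hyaluronan receptor. Its intronic weak region (chr11:35165721-35166077, 9 CTCF tags) had 8 and 8 pSTAT3 tags in BCL9 KD libraries, against 8, 6 and 5 in NS control libraries. The weak region in reach of MUC1, a membrane mucin, had 3 CTCF tags. The weak region in reach of ITGB4, the hemidesmosome integrin subunit, lies in an intron of SAP30BP and had 6. Its pSTAT3 tags were 35 and 44 in BCL9 KD libraries, against none, 6 and 40 in NS control libraries. In tags, values of both conditions overlapped at CD44, and at ITGB4 as well.

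Across all protein-coding genes, 1491 of 19748 (7.55%) had a member within 50 kb of a TSS and 17.5% had a distal shared region without CTCF. Basal epithelial genes had a member in 11 of 20 cases (55%), among them the keratins KRT6B and KRT17, the laminin chain LAMB3, the integrin subunits ITGA6, ITGB1 and ITGA3, the desmosome genes DSC3 and PKP1, S100A2 and SFN. No member lay within 50 kb of a TSS of KRT5, KRT6A, KRT14, KRT15, TP63, LAMA3, COL17A1, DSG3 or CDH3 of the same list. IL6 and STAT3 pathway genes had one in 11 of 30 (36.7%): the ligand LIF, the receptors IL6R and OSMR, STAT3 itself, its inhibitor PIAS3, and the targets BCL3, MYC, IRF1, BCL2L1, MCL1 and ICAM1. Only PIAS3 and SFN of these had a strong region in reach. Distal shared regions without CTCF lay in reach of 75% and 56.7% of the same lists, which is also above their share over all genes.

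Among the other lists, genes of enhancer-binding factors (AP-1, C/EBP, ETS, REL) had a member in 3 of 20 cases (ATF3, CEBPA and ELK4), Wnt genes 3 of 20 (TCF7L1, TCF7L2 and CTNNBIP1, an inhibitor of β-catenin binding), the YAP and TAZ pathway 3 of 14 (WWTR1, which encodes TAZ, AMOTL2 and NF2), and EMT genes 1 of 15 (TGFBI). Genes specific to other tissues had 2 of 24 (8.33%), near the share of all genes, and CTCF and cohesin genes had 0 of 12. DNAJB12, a chaperone gene, had the most members in reach (9), followed by ARHGAP26 and POU5F1B with 7, and EFCAB13, ITGA3, PLXNA2 and PRKCH with 5. ALDH3A1, DDIT4 and FAT2 had 4, tied with other genes. These counts are not adjusted for the number of TSSs of a gene or for its neighbours, which share regions.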

How the data were processed

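ChIP-exo libraries were analysed from the peak-pair lists that the authors deposited, 1 per library, with midpoints on hg19 and a signal column. Each deposited signal value equals whole tags multiplied by a constant of its list, so tags were obtained by division. The lists name a peak-pairing program, the study's methods ChExMix, and the submitters' processing notes bcl2fastq and hg19. For the aligner, the name was not given in the sources used here. Tags have no depth scale between libraries, and read totals were not used here. The IgG library was not analysed here.

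Windows of 100 bp shared at least 1 bp to overlap. Regions needed at least 2 of 3 control libraries, and members lay over 1 kb from 78530 protein-coding TSSs (GENCODE 44 lifted to GRCh37). Strings were searched on both strands of GRCh37, with flanks at 500 and 1000 bp. The summit is the control pSTAT3 midpoint with the best percentile. Percentiles are ranks within a list. Places (exon, intron) follow protein-coding genes at the summit. Regions are not replicates, so tests were exact permutations over libraries, as sign flips over 4 knockdown libraries. A planned permutation of condition is not reported, because the control libraries selected the regions. P-values measure the spread between these libraries only.

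The members and lists were chosen with earlier results of these data known. Named were the 20 strong regions with the highest CTCF signal, the 10 weak regions with the best mean rank in the 6 control lists, the 10 genes with most members within 50 kb, and list genes with a member there, of which some are not reported here. Sequences followed the same orders, 4 strong with the CTCF string and 4 weak with AP-1, and passed over a few regions that are not printed. Alternatives were lists of equal length, at least 10 tags, 3 of 3 libraries, windows of 50 and 200 bp, 5 kb from a TSS, summit overlap, other limits of the strong class, 20 kb reach, a replicate block and leaving out libraries. On simulated windows, 12 of 12 planted quantities were recovered. Tools were pysam 0.24.0, scipy 1.17.1, numpy 2.4.6, pandas 2.3.3, matplotlib 3.10.9 and statsmodels 0.14.6 under Python 3.11.15.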

Additional observations from a re-analysis of the deposited data

How the results depend on the processing

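Of the values recomputed under other settings, 61 moved and 21 reversed. The other 139 stayed on the same side of the test's threshold with their sign or, where no test was made, within the spread or counting interval of the main value, which for the AP-1 difference spans 0. The causes were not tested beyond what each setting itself changes (fewer peak pairs, narrower windows, fewer libraries). The number of members was 650 (21.2% of the distal shared regions) with pSTAT3 and BCL9 lists cut to equal length, 97 (3.90%) with at least 10 tags, 756 (27.5%) in all 3 control libraries, 1177 (15.3%) with 50 bp windows, 1052 (13.2%) with summit overlap and 993 (23.6%) without the 2 single-run control libraries, and 30.3% with 200 bp windows. Strong members numbered 9, 4, 13, 17, 24 and 20 under the same 6 settings, 81 with 200 bp windows, and 23, 70 and 122 when the 10000, 50000 or 100000 strongest CTCF peak pairs counted as strong. The core CTCF string lay under 0% of strong members with equal lists and 0% with 10 tags (9 and 4 regions), 33.3% with the looser string CAGNNGGC and 50% by the matrix, and under 5.38% of weak members with 10 tags, 0.862% with 50 bp windows, 11.9% with the looser string and 5.82% by the matrix. The median offset was 90 bp with equal lists, 111 with 10 tags, 115.5 in all 3 libraries, 53 and 157 with 50 and 200 bp windows, 50 with summit overlap and 101 without the single-run libraries. Genes in reach of a member numbered 565 with equal lists, 107 with 10 tags, 616 in all 3 libraries, 937 with 50 bp windows, 936 with summit overlap, 863 without the single-run libraries and 694 within 20 kb. The AP-1 difference was −2.82 points with summit overlap, 1.18 with 50 bp windows, 0.49 without the single-run libraries and 1.67 over the whole region. The knockdown occupancy difference was −0.28 with summit overlap, 5.50 with equal lists and 0.16 in all 3 libraries, and the percentile difference −0.16 with 10 tags. Strong minus weak was 2.46 in all 3 libraries, −24.35 with equal lists, −14.63 with 50 bp windows, −10.14 with summit overlap, −0.87 with 10 tags and −1.83 without the single-run libraries. The change between conditions for pSTAT3 was 3.27 points with equal lists, 1.80 with 10 tags, 0.17 in all 3 libraries and 0.56 without the single-run libraries, and for BCL9 it was 1.41, 3.40, 0.35 and 1.82 under the same settings and 0.80 with 200 bp windows.

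Leaving out 1 library at a time gave 889 to 1629 members (889 without control BCL9 replicate 3 and 1127 without control pSTAT3 replicate 3), 20.6% to 25.7% of the distal shared regions, 15 to 39 strong members, 724 to 1386 genes and offsets of 79 to 106 bp. The core string lay under 12.5% to 26.7% of strong and 1.37% to 1.89% of weak members. The AP-1 difference was −1.34 to 1.71 points, the knockdown occupancy difference 1.05 to 2.28, the percentile difference 1.30 to 2.16 and strong minus weak −5.97 to 1.54. The change between conditions was −2.14 to 0.96 for pSTAT3 and −1.95 to 2.59 for BCL9. The 300 to 500 bp class and the CTCF matrix were chosen after seeing the data.

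With a replicate block over the 2 shared replicate numbers, the change between conditions was −2.76 points for pSTAT3 and −1.80 for BCL9, given as values with no test. Deviations of same-numbered libraries correlated at 0.000349 and −0.0468 for pSTAT3 and at 0.0116 and −0.0316 for BCL9, so these values showed no pairing. With 2 shared numbers per antibody they cannot exclude a shared preparation or batch. The strongest CTCF peak pair had at most 4 tags, in a list that starts at 3, at 37.9% of the members. Of the single peak pairs of the whole CTCF list, 31.3% had at most 4.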
